A study of Mus musculus with 34 samples.

Results

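The FoxO and insulin signalling genes described here are 10 mouse genes: the FoxO transcription factors Foxo1, Foxo3, Foxo4 and Foxo6, the receptors Insr and Igf1r, the receptor substrates Irs1 and Irs2, the PI3-kinase inhibitor Pik3ip1 and the sestrin Sesn3. They were chosen by name for their place in the pathway, with earlier results of these data known, and were looked up by Ensembl identifier among the 37310 gene rows of each RNA-seq file. All 10 were found, and all 10 passed the filter on low counts in each of the 3 RNA-seq experiments. Foxo3, Foxo4, Insr and Pik3ip1 rose in each of the 6 comparisons of cells without serum and in serum. In any 1 of these comparisons 19.9 to 36.2% of all genes rose, and the share that rose in all 6 was not counted. Irs1 and Foxo6 were lower in cells labelled mir-138 DKO than in WT cells, and lower again with a miR-138 mimic than with a plasmid control. The Foxo6 difference with the mimic rested on 1 to 8 reads per mimic library, and its call in serum was lost without 1 plasmid library. The changes of Igf1r, Irs2, Insr and Sesn3 on withdrawal were smaller with the miR-138 mimic than with the plasmid. The tests of this were added after the data had been seen, and 27.8% of all genes passed them in either direction. The change of Igf1r was smaller with a miR-137 mimic too, and the Sesn3 call was lost without 1 of the plasmid libraries.

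Insulin and the insulin-like growth factors bind receptor tyrosine kinases, which phosphorylate the substrate proteins Irs1 and Irs2. These recruit PI3-kinase, which activates the kinase AKT, and AKT phosphorylates FoxO factors so that they leave the nucleus. When growth factors are withdrawn, FoxO factors return to the nucleus, and genes that they are reported to activate in mammalian cells include Insr, Irs2 and Sesn3, which makes the pathway a feedback loop.

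RNA was sequenced from mouse CAD cells, a catecholamine-making line of neuronal origin in which removal of serum halts division and brings out processes, and the samples asked how miR-138, an miRNA abundant in brain, bears on that change. Cells were grown with 10% fetal bovine serum, and differentiation medium held none. Experiment 1 compared cells labelled mir-138 DKO and WT cells, each after 1 day without serum and in serum, with 2 libraries per group and 8 in all. Experiment 2 compared WT cells after 4 days without serum and in serum, with 3 libraries per group. Experiment 3 used cells labelled mir-138 DKO transfected with a miR-138 mimic, a miR-137 mimic or pUC19 plasmid DNA, each after 2 days without serum and in serum, and cells in serum with no transfection named, with 2 libraries per group and 14 in all. The mimic dose was 3 nM. Serum-free medium was given 48 h after transfection, so the libraries without serum also come from later after transfection than those in serum. All cells of experiment 3, the pUC19 and untransfected controls included, carried the DKO label. No group was given a control mimic. When a mimic is set against pUC19, its sequence and the change from plasmid DNA to mimic therefore cannot be told apart. The labels do not say how many clones the DKO line represents, or whether libraries of a group came from separate cultures, and p-values then measure only the spread between these libraries, which may be technical.

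Reads assigned to genes numbered 22359075 to 41505181 per library in experiment 1, 19900317 to 28631969 in experiment 2 and 12740836 to 25582125 in experiment 3. The 2 serum libraries labelled DKO stood further apart than the pairs of the other 3 groups of experiment 1, at a chi-square of 25.2 per gene against 5.56 to 7.11, and replicate 1 of the WT cells after 4 days stood apart from its group, at 24.7 and 28.4 against 13.7 between the other two. The WT libraries after 4 days without serum are WT by title and mir-138 DKO in the genotype field, and are treated as WT. Mimic transfections are called triplicate in one label and duplicate in another, with 2 libraries per group used here. The titles of the untransfected libraries carry a 2 after DKO that those of the transfected ones lack. Those of experiment 2 carry one after WT, and what it stands for is not stated. The polyA reads of the hairpin gene Mir138-1 were higher in the libraries labelled DKO (10.1 ± 1.13 in TMM-scaled counts-per-million units, CPM, after 1 day without serum and 6.83 ± 1.27 in serum) than in WT libraries (1.02 ± 0.50 after 1 day and 0.62 ± 0.09 in serum; SD, n = 2 each), and Mir138-2 had 0 counts in every library. Whether these reads lie in a deleted part is not known, so they check nothing about the deletion, and the cells are called cells labelled DKO throughout. Of the CAD markers, Th, the catecholamine-synthesis enzyme that defines the line, was at 0 in both serum libraries labelled DKO and reached at most 2.17 CPM elsewhere, and the summed level of the 11 neuronal markers was 1283 to 1457 CPM in cells labelled DKO against 3430 to 6014 CPM in WT cells of experiment 1. Of these, Chgb averaged 18.5 CPM against 2886 CPM after 1 day, and 11.2 CPM against 904 CPM in serum. Of the 11, 9 were lower in cells labelled DKO after 1 day and 10 in serum. The summed fibroblast markers reached at most 39.1 CPM, the glial ones 18.7 CPM and the blood ones 2.29 CPM in any group. The part of these levels in the results was not tested.

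The miRNAs behind the groups are shown because the mimics and the DKO label are named for them. The seed, bases 2 to 8, is the part of an miRNA that pairs with targets, and target sites were not examined here. The labels do not say which arm of the hairpin each mimic copies. The arms that RefSeq lists in its mouse GRCm38.p6 annotation and that are used most widely are these, with the seed in capitals.
mmu-miR-138-5p: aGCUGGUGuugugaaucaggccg
mmu-miR-137-3p: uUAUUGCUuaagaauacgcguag
The mature miR-138-5p is the same from both its hairpin genes, at chr9:122682898-122682920 (Mir138-1) and chr8:94324312-94324334 (Mir138-2), both on the plus strand. The mature miR-137-3p lies at chr3:118433901-118433923 on the plus strand. The 2 seeds shown differ. If the mimics copy these arms, they form 2 seed groups of 1 miRNA each.

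Serum withdrawal in WT cells came with higher RNA of 7 of the 10 members after 1 day, and of 7 of 10 after 4 days, with none lower. In experiment 1 the members that rose after 1 day were Foxo3, Foxo4, Insr, Igf1r, Irs1, Pik3ip1 and Sesn3. Of all 13630 genes tested there 40.7% changed, 20.4% higher and 20.3% lower. In experiment 2 the members that rose after 4 days were Foxo3, Foxo4, Foxo6, Insr, Igf1r, Irs1 and Pik3ip1. Of all 13283 genes tested there 70.9% changed, 36.2% higher and 34.7% lower. The median log2 change of the members was 0.84 after 1 day, against 0.03 over all genes tested, and 1.27 after 4 days, against 0.04. The test was edgeR's quasi-likelihood test, its p-values were adjusted by Benjamini and Hochberg's method across every gene tested, and a change was called under an adjusted p of 0.05. In both experiments the share of members that rose, 7 of 10, was above that of all genes. The members were chosen with earlier results of these data known, so this is a description and no test. All 7 calls at 4 days were kept without the library that stood apart. The experiments were fitted apart, so 1 and 4 days were not tested against each other.

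Among the FoxO factors, Foxo3, a member expressed in most tissues, moved most. Its level was 116 and 106 CPM after 1 day without serum, against 53.4 and 45.2 CPM in serum (log2 fold change 1.17 ± 0.09 SE, adjusted p = 3.07e-07). After 4 days it was 198, 237 and 246 CPM, against 29.7, 29.1 and 32.4 CPM in serum (2.90 ± 0.10, adjusted p = 2.33e-11). Every library without serum was above every library in serum. Foxo4, which is encoded on the X chromosome in mammals, had 37.9 and 40.1 CPM after 1 day, against 21.7 and 23.1 CPM in serum (0.80 ± 0.11, adjusted p = 6.12e-05). By 4 days it had 38.0, 37.4 and 43.3 CPM, against 21.3, 19.1 and 16.7 CPM (1.06 ± 0.13, adjusted p = 5.77e-06). The groups did not overlap in either experiment. Foxo6, a family member first described in brain, had 4.12 and 4.15 CPM after 1 day, against 5.91 and 5.15 CPM in serum, and did not pass the test (−0.42 ± 0.31, adjusted p = 0.316). At 4 days it had 9.71, 7.98 and 9.87 CPM, against 3.52, 2.94 and 4.05 CPM in serum, and rose (1.39 ± 0.24, adjusted p = 0.000146). Its point estimates thus had opposite signs in the 2 experiments, and that difference was not tested.

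Foxo1, the FoxO factor best known for the control of glucose production in liver, had few reads. It had 0.71 and 1.07 CPM after 1 day without serum, against 0.31 and 0.50 CPM in serum, from 16 and 29 reads against 8 and 16 reads. In the 4-day experiment it had 0.86, 0.61 and 1.65 CPM, against 0.23, 0.82 and 0.34 CPM in serum, and the groups overlapped. Neither change passed the test (1.14 ± 0.78, adjusted p = 0.27, and 1.15 ± 0.67, adjusted p = 0.143).

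Both receptors rose. Insr, the insulin receptor, had 70.7 and 65.9 CPM after 1 day, against 36.9 and 31.9 CPM in serum (0.99 ± 0.10, adjusted p = 2.63e-06). By 4 days its level was 89.8, 115 and 105 CPM, against 23.6, 21.1 and 21.9 CPM in serum (2.22 ± 0.11, adjusted p = 7e-10). No library without serum reached down to the level of serum. Igf1r, the receptor for insulin-like growth factor 1, had 94.4 and 88.3 CPM after 1 day, against 64.2 and 56.3 CPM in serum (0.60 ± 0.15, adjusted p = 0.00555). At 4 days its level was 76.5, 94.2 and 91.6 CPM, against 42.1, 42.7 and 46.6 CPM (1.00 ± 0.10, adjusted p = 8.5e-07). The groups were apart in both experiments, but the 1-day call was lost without replicate 2 in serum (0.50, adjusted p = 0.0959) or replicate 1 of the 1-day cells (0.54, adjusted p = 0.0513), with adjusted p-values of 4.6e-09 to 0.0959 over all its alternatives.

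Of the receptor substrates, Irs1 rose, and Irs2 did not pass with the settings used throughout. Irs1 had 30.7 and 30.4 CPM after 1 day, against 22.0 and 22.2 CPM in serum (0.47 ± 0.13, adjusted p = 0.00991). By 4 days it had 48.4, 50.3 and 51.9 CPM, against 19.3, 14.7 and 19.6 CPM in serum (1.49 ± 0.13, adjusted p = 1.73e-07). The libraries without serum lay above those in serum each time, and the smaller 1-day change missed the threshold when any 1 of its 4 libraries was left out, with log2 changes of 0.45 to 0.48 and adjusted p-values of 0.0555 (without replicate 2 of the 1-day cells) to 0.0717 (without replicate 1 of them), against 0.000991 as the lowest of all alternatives. Irs2 had 568 and 522 CPM after 1 day, against 448 and 424 CPM in serum, and did not pass (0.32 ± 0.14, adjusted p = 0.083). At nearly the same size it did when low-count genes were kept (0.31, adjusted p = 8.34e-06), with the replicate number as a block (0.32, adjusted p = 0.0115) and with the compared libraries alone (0.31, adjusted p = 0.00013; highest of its alternatives 0.347). After 4 days it had 398, 291 and 322 CPM, against 312, 264 and 306 CPM, with overlapping groups (0.20 ± 0.11, adjusted p = 0.113). The 4-day change of Irs2 passed without replicate 2 of the 4-day cells (0.28, adjusted p = 0.0247), when low-count genes were kept (0.21, adjusted p = 0.0466) and with the replicate block (0.19, adjusted p = 0.0478; highest of its alternatives 0.508). Its change is thus small, and whether it is called depends on the fit.

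Pik3ip1, a membrane protein that binds the catalytic subunit of PI3-kinase and inhibits it, had the largest change of the 10 members in both experiments. It had 37.8 and 38.5 CPM after 1 day without serum, against 9.57 and 8.43 CPM in serum (2.09 ± 0.13, adjusted p = 3.96e-08). After 4 days it had 197, 183 and 188 CPM, against 8.18, 7.38 and 6.25 CPM in serum (4.70 ± 0.11, adjusted p = 2.28e-12). The libraries without serum were at more than 3 times the level of any in serum each time. Sesn3, a sestrin that restrains mTORC1 when nutrients are short, had 30.3 and 31.8 CPM after 1 day, against 16.9 and 16.8 CPM in serum (0.89 ± 0.13, adjusted p = 9.16e-05). After 4 days it had 12.1, 12.0 and 12.4 CPM, against 10.2, 7.42 and 10.0 CPM, with all 3 libraries without serum higher but no pass (0.41 ± 0.19, adjusted p = 0.0664). The summed level of the 3 proliferation markers moved with these changes, at 989 to 1039 CPM after 1 day against 1944 to 1996 CPM in serum, and at 6.29 to 31.9 CPM after 4 days against 1372 to 1494 CPM in serum, and its part in the results was not tested. Other marker lists moved as well. The 11 neuronal markers summed to 5950 to 6014 CPM after 1 day against 3430 to 3518 CPM in serum (6 higher and 2 lower). They summed to 9244 to 11620 CPM after 4 days against 3615 to 3741 CPM in serum (5 higher and 3 lower). Within these sums Chgb alone averaged 2886 CPM after 1 day against 904 CPM in serum, and 7433 CPM after 4 days against 1149 CPM. Dbh averaged 5.69 CPM after 4 days against 54.9 CPM in serum, and Ina 279 CPM against 343 CPM. The 7 fibroblast markers, of which 4 were tested, summed to 4.39 to 4.85 CPM after 1 day against 2.17 to 2.52 CPM in serum (1 higher). After 4 days they summed to 9.80 to 11.5 CPM against 1.21 to 1.92 CPM in serum (4 higher), with Col3a1 at 0 throughout. The part of these in the results was not tested either. In bulk RNA, fewer cells of a kind and less RNA per cell cannot be told apart.

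**Figure D1:**
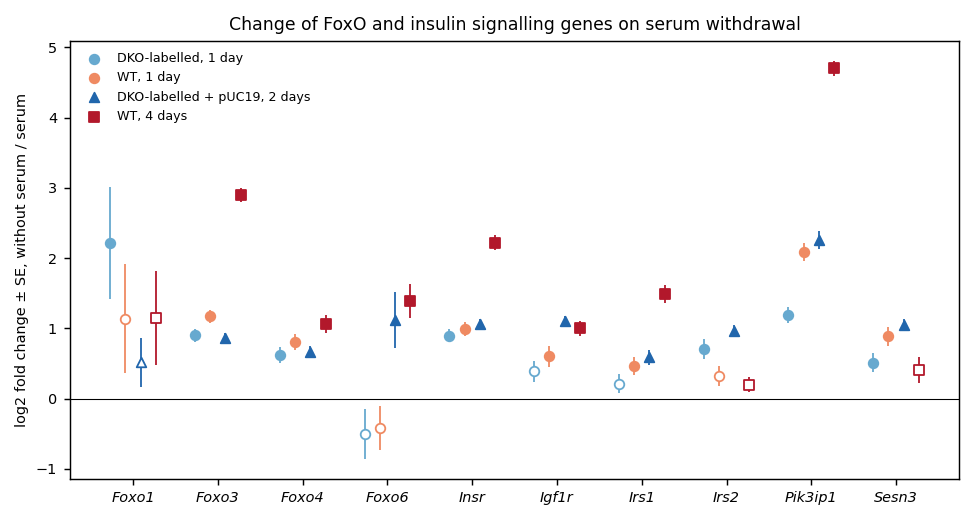
Log2 fold change on serum withdrawal (y axis, without serum over serum, with bars of 1 SE) for the 10 members (x axis) in cells labelled DKO after 1 day, WT cells after 1 day, pUC19-transfected cells labelled DKO after 2 days and WT cells after 4 days; filled symbols passed the test and open ones did not. Pik3ip1 stands highest in WT cells after 4 days, at 4.70, and Foxo6 is the one member with values below 0.

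The same withdrawal in cells labelled DKO, over 1 day in experiment 1, came with higher RNA of 7 members and lower RNA of none, where 40.3% of all 13630 genes tested changed, 19.9% higher and 20.4% lower. The members were Foxo1, Foxo3, Foxo4, Insr, Irs2, Pik3ip1 and Sesn3, with a median log2 change of 0.67 over the 10 members against 0.01 over all genes. Foxo3 had 90.3 and 84.8 CPM after 1 day without serum, against 46.4 and 47.4 CPM in serum (0.90 ± 0.09, adjusted p = 3.5e-06). Insr had 59.3 and 55.9 CPM, against 32.1 and 29.7 CPM in serum (0.90 ± 0.10, adjusted p = 7.48e-06). For both genes the libraries without serum lay clear of those in serum. Foxo4 had 41.9 and 40.7 CPM, against 24.4 and 29.4 CPM in serum (0.62 ± 0.11, adjusted p = 0.000467). Irs2 had 542 and 486 CPM, against 384 and 245 CPM in serum (0.71 ± 0.14, adjusted p = 0.00111), and the wide gap between its 2 serum libraries did not close the gap to the cells without serum.

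Pik3ip1 had 40.2 and 42.4 CPM in cells labelled DKO after 1 day, against 19.7 and 16.5 CPM in serum (1.19 ± 0.12, adjusted p = 3.56e-06). Sesn3 had 23.2 and 21.3 CPM, against 17.2 and 13.9 CPM in serum (0.51 ± 0.13, adjusted p = 0.00596), and without replicate 1 of the 1-day cells it missed the threshold (0.44, adjusted p = 0.0688, the highest of its alternatives, with 0.000357 the lowest). Foxo1 passed on few reads. It had 0.75 and 1.43 CPM, against 0.37 and 0.07 CPM in serum, from 22 and 45 reads against 15 and 2 reads (2.21 ± 0.80, adjusted p = 0.0392), and the call was lost without replicate 2 in serum (1.57, adjusted p = 0.151), replicate 1 of the 1-day cells (2.59, adjusted p = 0.0666) or replicate 2 of them (1.70, adjusted p = 0.274). It was lost too with the replicate block (2.13, adjusted p = 0.0579) or with the compared libraries alone (2.21, adjusted p = 0.0603). Without replicate 1 in serum the estimate was 3.85 (adjusted p = 0.0105) and with unstranded counts 3.39 (adjusted p = 0.00539), with adjusted p-values of 0.00539 to 0.274 over all its alternatives. Igf1r had 69.8 and 64.9 CPM, against 62.9 and 39.6 CPM in serum, and did not pass (0.39 ± 0.15, adjusted p = 0.0563), while it did without replicate 1 in serum (0.76, adjusted p = 6.22e-07), when low-count genes were kept (0.40, adjusted p = 0.00012) and with the replicate block (0.41, adjusted p = 0.00649; highest of its alternatives 0.339). Irs1 (13.4 and 15.4 CPM, against 13.5 and 11.3 CPM in serum) and Foxo6 (1.39 and 1.05 CPM, against 2.16 and 1.25 CPM) had overlapping groups and did not pass.

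Cells labelled DKO differed from WT cells at 4 members in serum, where 40.7% of all genes tested differed, 19.2% higher and 21.5% lower, and at 5 members after 1 day without serum, where 44.9% differed, 21.9% higher and 23.0% lower. In serum Pik3ip1 was higher in cells labelled DKO, while Foxo6, Irs1 and Irs2 were lower. After 1 day Foxo3, Foxo6, Igf1r, Irs1 and Sesn3 were lower and no member was higher. The median log2 difference of the members was −0.19 in serum, against −0.01 over all genes, and −0.29 after 1 day, against 0.01. The members' shares, 4 and 5 of 10, were near those of all genes.

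Irs1 and Foxo6 were lower in cells labelled DKO in both media. Irs1 had 13.5 and 11.3 CPM in serum cells labelled DKO, against 22.0 and 22.2 CPM in WT cells (−0.83 ± 0.13, adjusted p = 0.000173), and after 1 day 13.4 and 15.4 CPM, against 30.7 and 30.4 CPM (−1.09 ± 0.13, adjusted p = 1.05e-05). Foxo6 had 2.16 and 1.25 CPM in serum, against 5.91 and 5.15 CPM in WT cells (−1.68 ± 0.33, adjusted p = 0.000897), and after 1 day 1.39 and 1.05 CPM, against 4.12 and 4.15 CPM (−1.76 ± 0.34, adjusted p = 0.000752). No library labelled DKO reached the lowest WT library for either gene, and both genes passed in every alternative that was run. Pik3ip1 was higher in cells labelled DKO in serum, with 19.7 and 16.5 CPM against 9.57 and 8.43 CPM in WT cells (1.01 ± 0.13, adjusted p = 2.06e-05). After 1 day it had 40.2 and 42.4 CPM, against 37.8 and 38.5 CPM, and did not pass (0.11 ± 0.12, adjusted p = 0.465).

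The interaction of label and withdrawal tests whether a gene's change on withdrawal differed between cells labelled DKO and WT cells, and it passed for Pik3ip1 alone of the 10 members, where 9.72% of all genes passed, 5.36% positive and 4.37% negative. The change of Pik3ip1 on withdrawal was 1.19 in cells labelled DKO and 2.09 in WT cells on the log2 scale, a difference of −0.90 ± 0.17 (adjusted p = 0.00465). Its levels without serum were close in both lines, and its levels in serum were not. In cells labelled DKO the proliferation markers summed to 1812 to 1826 CPM after 1 day against 2178 to 2352 CPM in serum. In WT cells they summed to 989 to 1039 CPM against 1944 to 1996 CPM. All 3 markers passed the interaction with a positive sign, and their part in the Pik3ip1 difference was not tested. Igf1r passed too without replicate 2 of the serum cells labelled DKO (−0.47, adjusted p = 0.0068; 0.875 the highest of its alternatives), and Irs2 without replicate 1 of them (0.76, adjusted p = 5.92e-07) or when low-count genes were kept (0.42, adjusted p = 0.000109; 0.595 the highest), against −0.22 and 0.39 with all libraries.

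The other differences between the lines were smaller, and each lost its call when certain single libraries were left out, which leaves 1 library in a group. Irs2 had 384 and 245 CPM in serum cells labelled DKO, against 448 and 424 CPM in WT cells (−0.47 ± 0.14, adjusted p = 0.015), and lost the call with DESeq2 (−0.46, adjusted p = 0.134), without WT serum replicate 1 (−0.43, adjusted p = 0.109) or WT serum replicate 2 (−0.51, adjusted p = 0.0607), with adjusted p-values of 2.04e-12 to 0.134 over its alternatives. Foxo3 after 1 day had 90.3 and 84.8 CPM in cells labelled DKO, against 116 and 106 CPM in WT cells (−0.34 ± 0.09, adjusted p = 0.00598), and lost the call without WT 1-day replicate 1 (−0.24, adjusted p = 0.138) or DKO 1-day replicate 2 (−0.25, adjusted p = 0.12), with adjusted p-values of 6.52e-05 to 0.138 over its alternatives. Sesn3 after 1 day had 23.2 and 21.3 CPM, against 30.3 and 31.8 CPM (−0.48 ± 0.13, adjusted p = 0.00696), and lost the call without WT 1-day replicate 2 (−0.45, adjusted p = 0.0601) or DKO 1-day replicate 2 (−0.38, adjusted p = 0.104), with adjusted p-values of 0.000306 to 0.104 over its alternatives. For both of these genes no library labelled DKO reached the lowest WT library. Igf1r after 1 day had 69.8 and 64.9 CPM, against 94.4 and 88.3 CPM (−0.44 ± 0.15, adjusted p = 0.0283), and lost the call with DESeq2 (−0.44, adjusted p = 0.152) and when any 1 of its 4 libraries was left out (−0.35 to −0.50, adjusted p = 0.0673 to 0.221), with adjusted p-values of 5.23e-06 to 0.221 over its alternatives. In serum, Igf1r and Foxo4 did not pass with all libraries (−0.22 and 0.26), but did without DKO serum replicate 1 (−0.61, adjusted p = 1.36e-05, with 0.698 the highest of its alternatives, and 0.38, adjusted p = 0.00934, with 0.384 the highest). Insr did not pass in either medium (−0.15 in serum and −0.24 after 1 day, adjusted p = 0.247 and 0.0509), and nor did Foxo1. The 1-day value of Insr passed, at about the same size, with RLE scaling (−0.25, adjusted p = 0.0493), with the replicate block (−0.24, adjusted p = 0.0251) and with the compared libraries alone (−0.25, adjusted p = 0.00643; highest of its alternatives 0.403). The proliferation markers summed to 1812 to 1826 CPM after 1 day in cells labelled DKO against 989 to 1039 CPM in WT cells (3 of 3 higher), beside the neuronal markers given above (9 of 11 lower), and their part in these differences was not tested.

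**Figure D2:**
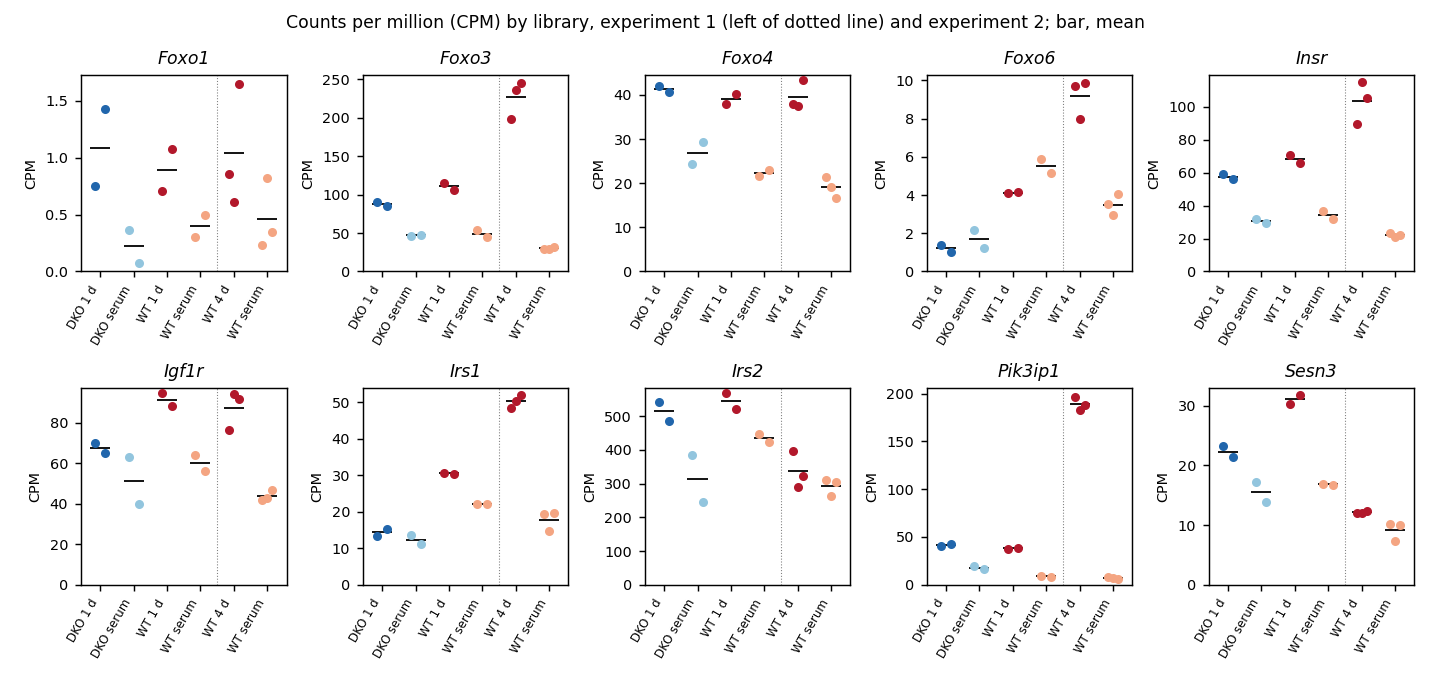
Level in CPM (y axis) of each member in every library of experiment 1 (left of the dotted line) and experiment 2 (right of it); points are libraries, bars are group means, and the y axes differ between panels and start at 0. Irs1 and Foxo6 sit lower in all libraries labelled DKO than in WT libraries of experiment 1, and Pik3ip1 reaches 183 to 197 CPM in WT cells after 4 days against 6.25 to 8.18 CPM in serum.

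Stretches of the Irs1 and Irs2 promoters are shown because these substrates were lower together in serum cells labelled DKO and, as given below, in miR-138 mimic cells without serum. In several other comparisons they parted. On withdrawal for 1 day Irs1 but not Irs2 passed in WT cells, and Irs2 but not Irs1 in cells labelled DKO. Irs1 but not Irs2 was lower in cells labelled DKO after 1 day, and with the miR-138 mimic in serum. Pearson's r of their group mean log2 CPM, centred within each experiment, was 0.42 over the 13 RNA-seq groups. RefSeq's GRCm38.p6 table held a promoter window, 250 bases before the start site to 50 after it, for 7 of the 10 members. Each run gives the 150 bases before the start site, 5′ to 3′ on the gene's own strand, the minus strand for both genes. Capitals mark the letters CACGTG, an E-box, and TGTTTTG, which reads CAAAACA on the other strand and is one form of the FoxO-bound insulin response sequence. The motifs were chosen with the letters in view.
Irs1, chr1:82291440-82291589: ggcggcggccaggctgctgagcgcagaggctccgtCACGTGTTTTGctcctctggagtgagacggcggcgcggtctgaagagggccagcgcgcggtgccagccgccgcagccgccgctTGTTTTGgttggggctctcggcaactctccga
Irs2, chr8:11008930-11009079: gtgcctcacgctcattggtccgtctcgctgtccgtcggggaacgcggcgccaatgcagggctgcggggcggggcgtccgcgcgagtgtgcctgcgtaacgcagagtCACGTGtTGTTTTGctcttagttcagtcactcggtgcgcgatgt
In Irs1 the E-box spans bases 115 to 110 before the start and overlaps the first TGTTTTG, at bases 111 to 105, and a second TGTTTTG lies at bases 32 to 26. In Irs2 the E-box lies at bases 44 to 39 and TGTTTTG at bases 37 to 31. On either strand, CAAAACA was found in 6.28% of 32851 promoter windows of the same length, CACGTG in 7.15% and both in 0.408%. Of the 7 members with a window, Irs1 and Irs2 held both motifs and the other 5 held neither. GTAAACA, the core of the FoxO consensus site, was found in 0 of the 7 and in 3.65% of all windows. These matches describe letters only, and the data hold no measure of binding.

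In experiment 3, pUC19-transfected cells were first set against untransfected ones. Their titles differ by the unexplained 2, so transfection and any difference of line or batch cannot be told apart. In serum, pUC19-transfected cells differed from untransfected cells, both labelled DKO, at 4 members, where 26.2% of all 12655 genes tested differed, 10.7% higher and 15.5% lower. Foxo3 was higher with pUC19, at 65.9 and 67.6 CPM against 54.2 and 55.9 CPM in untransfected cells (0.28 ± 0.08, adjusted p = 0.0166). Igf1r was lower, at 48.5 and 44.4 CPM against 55.6 and 59.5 CPM (−0.31 ± 0.07, adjusted p = 0.00247), as were Foxo4, at 19.6 and 21.1 CPM against 24.9 and 24.4 CPM (−0.28 ± 0.08, adjusted p = 0.0157), and Irs1, at 14.3 and 14.7 CPM against 17.5 and 18.8 CPM (−0.33 ± 0.10, adjusted p = 0.0241). Igf1r alone of these kept its call in every alternative. Foxo3 lost it without untransfected replicate 1 (0.25, adjusted p = 0.114) or pUC19 replicate 2 (0.26, adjusted p = 0.0958; range over alternatives 0.000788 to 0.114). Foxo4 lost it without untransfected replicate 1 (−0.27, adjusted p = 0.085) or pUC19 replicate 1 (−0.21, adjusted p = 0.16), and when low-count genes were kept, with DESeq2 or with the compared libraries alone (−0.24 to −0.27, adjusted p = 0.0662 to 0.0797; range of all 0.0146 to 0.16). Irs1 lost it without any 1 of the 4 libraries (−0.28 to −0.38, adjusted p = 0.0505 to 0.13), and when low-count genes were kept, with DESeq2 or with the compared libraries alone (−0.29 to −0.32, adjusted p = 0.0517 to 0.107). With unstranded counts Irs1 differed by −0.14 only (adjusted p = 0.396; lowest of its alternatives 0.0222). Irs2, which did not pass (0.13), passed without untransfected replicate 2 (0.27, adjusted p = 0.0304) or pUC19 replicate 1 (0.27, adjusted p = 0.024; highest 0.947). The proliferation markers summed to 2087 to 2301 CPM with pUC19 against 2699 to 2869 CPM in untransfected cells, and their part was not tested.

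On withdrawal of serum for 2 days, 9 members rose in pUC19 cells, where 59.7% of all genes changed (28.4% higher, 31.3% lower), 7 in miR-138 mimic cells, where 63.3% changed (31.1% higher, 32.2% lower), and 9 in miR-137 mimic cells, where 65.8% changed (33.2% higher, 32.6% lower). No member fell in any of the 3, and the shares of members that rose were above those of all genes, again as a description. The median log2 change of the members was 0.64 with the miR-138 mimic, 0.97 with the miR-137 mimic and 1.00 with pUC19, against 0.01, 0.02 and −0.02 over all genes. Foxo3, Foxo4, Insr, Irs2, Pik3ip1 and Sesn3 rose in all 3. Igf1r and Irs1 rose with the miR-137 mimic and with pUC19 but did not pass with the miR-138 mimic. The Irs2 call with the miR-138 mimic (0.24 ± 0.08, adjusted p = 0.0134) was lost without serum replicate 2 (0.23, adjusted p = 0.0508) or 2-day replicate 2 (0.20, adjusted p = 0.0967; lowest 0.000428). The Irs1 call with the miR-137 mimic (adjusted p = 0.0028) was lost without serum replicate 1 (0.29, adjusted p = 0.0633; lowest 0.00166). With the miR-138 mimic Irs1 passed with RLE scaling (0.27, adjusted p = 0.0439) and without serum replicate 1 (0.34, adjusted p = 0.0417; highest 0.332).

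Pik3ip1 again changed most of the 10 members in all 3 kinds of cell. It had 47.3 and 61.2 CPM after 2 days against 14.8 and 15.6 CPM in serum with the miR-138 mimic (1.83 ± 0.12, adjusted p = 6.16e-11), and 81.3 and 76.2 CPM against 16.4 and 16.4 CPM with the miR-137 mimic (2.26 ± 0.12, adjusted p = 7.02e-12). With pUC19 it had 55.9 and 71.8 CPM against 13 and 13.6 CPM in serum (2.26 ± 0.13, adjusted p = 1.06e-11). All libraries without serum lay far above all in serum. Foxo3 changed by 1.00 ± 0.08 with the miR-138 mimic, 1.06 ± 0.08 with the miR-137 mimic and 0.86 ± 0.08 with pUC19, and Foxo4 by 0.45 ± 0.08, 0.96 ± 0.08 and 0.66 ± 0.08 in the same order, with the highest adjusted p of the 6 at 4.17e-05.

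Foxo6 had few reads in all of these cells, at 0.06 to 2.01 CPM, from 1 to 34 reads. It had 1.24 and 1.02 CPM after 2 days against 0.47 and 0.29 CPM in serum with the miR-137 mimic (1.56 ± 0.55, adjusted p = 0.0185), and 2.01 and 1.77 CPM against 0.98 and 0.71 CPM with pUC19 (1.12 ± 0.40, adjusted p = 0.0202). Both calls were lost with DESeq2 (adjusted p = 0.0574 and 0.116) and without 1 library: for miR-137 without serum replicate 2 (1.26, adjusted p = 0.117) or 2-day replicate 1 (1.41, adjusted p = 0.0918; lowest 0.0046), and for pUC19 without serum replicate 2 (0.96, adjusted p = 0.099) or 2-day replicate 1 (1.02, adjusted p = 0.094; lowest 0.00586). With the miR-138 mimic Foxo6 had 0.06 and 0.58 CPM after 2 days, against 0.20 and 0.15 CPM in serum, with overlapping groups, and passed without 2-day replicate 1 alone (1.71, adjusted p = 0.0469; highest 0.60). Foxo1 rose with the miR-138 mimic, at 2.08 and 3.46 CPM against 1.496 and 1.89 CPM (0.68 ± 0.28, adjusted p = 0.039), and lost the call with DESeq2 (0.73, adjusted p = 0.154), without serum replicate 1 (0.54, adjusted p = 0.175) or 2-day replicate 2 (0.30, adjusted p = 0.474), or with the compared libraries alone (0.68, adjusted p = 0.0524; lowest 0.00943).

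The miR-138 mimic was set against pUC19 in the same medium. In serum 6 members differed, where 56.0% of all genes did, 28.7% higher and 27.3% lower: Insr, Igf1r and Sesn3 were higher with the mimic, and Foxo3, Foxo6 and Irs1 were lower. After 2 days without serum 6 members differed, where 62.0% of all genes did, 30.9% higher and 31.1% lower: Sesn3 was higher, and Foxo3, Foxo6, Igf1r, Irs1 and Irs2 were lower. The miR-137 mimic differed from the same pUC19 libraries at 2 members in serum, where 45.6% of all genes did (23.1% higher, 22.5% lower), and at 4 members after 2 days, where 42.7% did (20.5% higher, 22.2% lower). Since both mimics share the pUC19 libraries, their values are given side by side. The mimics were also tested against each other: 7 members differed in serum, where 63.4% of all genes did (32.7% higher, 30.7% lower), and 9 after 2 days, where 61.6% did (30.8% in each direction). The miR-138 and miR-137 difference was lost for Foxo3 in serum without miR-137 replicate 1 (−0.22, adjusted p = 0.0759; −0.29 with all, lowest 0.000416). It was lost for Foxo1 after 2 days with DESeq2 or without replicate 2 of either mimic (0.41 to 0.83, adjusted p = 0.126 to 0.375; 0.82 with all, lowest 0.0102). For Foxo6 after 2 days it was lost without replicate 1 of either (−0.98 and −1.74, adjusted p = 0.145 and 0.0506; −1.89 with all, lowest 0.000661, and −4.07 without miR-138 replicate 2). With the miR-138 mimic the share of members that differed from pUC19, 6 of 10 in both media, was near that of all genes.

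Irs1 was lower with the miR-138 mimic in both media. It had 10.5 and 11.2 CPM after 2 days with the miR-138 mimic, 19.8 and 19.3 CPM with the miR-137 mimic and 21.4 and 22.1 CPM with pUC19. In serum it had 9.73 and 8.60 CPM with the miR-138 mimic, 13.6 and 15.99 CPM with the miR-137 mimic, 14.3 and 14.7 CPM with pUC19 and 17.5 and 18.8 CPM in untransfected cells. The 4 libraries with the miR-138 mimic were the 4 lowest of the 14. Against pUC19 the log2 difference with the miR-138 mimic was −1.003 ± 0.11 after 2 days (adjusted p = 1.35e-07) and −0.66 ± 0.11 in serum (adjusted p = 3.45e-05), while with the miR-137 mimic it was −0.16 ± 0.10 (adjusted p = 0.232) and 0.03 ± 0.11 (adjusted p = 0.837). The miR-138 mimic against the miR-137 mimic gave −0.85 ± 0.11 after 2 days (adjusted p = 1.78e-06) and −0.69 ± 0.11 in serum (adjusted p = 1.43e-05).

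Foxo6 had the largest differences with the miR-138 mimic on the fewest reads. After 2 days it had 0.06 and 0.58 CPM with the miR-138 mimic, from 1 and 8 reads, against 2.01 and 1.77 CPM with pUC19, from 34 and 26 reads (−2.63 ± 0.50, adjusted p = 0.000144). In serum it had 0.20 and 0.15 CPM, from 5 and 4 reads, against 0.98 and 0.71 CPM with pUC19, from 18 and 9 reads (−2.29 ± 0.58, adjusted p = 0.00234). The libraries with the mimic were below those with pUC19 in both media, yet the size was loosely set: without 2-day mimic replicate 1 it was −1.71 (adjusted p = 0.00725) and without 2-day mimic replicate 2 it was −4.80 (adjusted p = 3.79e-05; range of all alternatives 3.93e-08 to 0.00725), and in serum the call was lost without pUC19 replicate 1 (−1.99, adjusted p = 0.0515; lowest 7.64e-05). With the miR-137 mimic the difference from pUC19 was −0.75 ± 0.39 after 2 days and −1.18 ± 0.57 in serum, and neither passed (adjusted p = 0.131 and 0.0987). Foxo3 was lower with the miR-138 mimic, at 95.1 and 109 CPM after 2 days against 111 and 131 CPM with pUC19 (−0.25 ± 0.08, adjusted p = 0.00866), and at 51.0 and 50.8 CPM in serum against 65.9 and 67.6 CPM (−0.39 ± 0.08, adjusted p = 0.000382), where untransfected cells had 54.2 and 55.9 CPM. The 2-day call was lost without mimic replicate 1 (−0.15, adjusted p = 0.153) or pUC19 replicate 2 (−0.12, adjusted p = 0.191; lowest 0.000172).

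Igf1r was lower with the miR-138 mimic than with pUC19 after 2 days and higher in serum. After 2 days without serum it had 58.1 and 59.0 CPM with the miR-138 mimic, 98.4 and 95.3 CPM with the miR-137 mimic and 98.1 and 103 CPM with pUC19. In serum it had 56.3 and 57.9 CPM, 65.9 and 72.3 CPM, and 48.5 and 44.4 CPM in the same order. Untransfected cells in serum had 55.6 and 59.5 CPM, and both libraries with the miR-138 mimic lay in that range. Those with pUC19 lay below it, by −0.31 on the log2 scale. No test set the mimics against untransfected cells. The level with the miR-138 mimic was thus nearly the same in both media, while the others rose without serum. Against pUC19, the miR-138 mimic gave −0.78 ± 0.07 after 2 days (adjusted p = 3.7e-09) and 0.29 ± 0.07 in serum (adjusted p = 0.000882). The miR-137 mimic gave −0.05 ± 0.06 after 2 days (adjusted p = 0.519) and 0.57 ± 0.07 in serum (adjusted p = 1.18e-06). Between the mimics, Igf1r was lower with miR-138 by −0.73 ± 0.07 after 2 days (adjusted p = 1.05e-08) and by −0.28 ± 0.06 in serum (adjusted p = 0.000938).

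Irs2 was lower with both mimics after 2 days, at 333 and 357 CPM with the miR-138 mimic and 437 and 417 CPM with the miR-137 mimic, against 508 and 509 CPM with pUC19. The log2 difference from pUC19 was −0.56 ± 0.08 with miR-138 (adjusted p = 4.68e-06) and −0.25 ± 0.08 with miR-137 (adjusted p = 0.0144), and the second was lost without 2-day miR-137 replicate 2 (−0.22, adjusted p = 0.114; lowest 3.64e-05). In serum Irs2 had 295 and 290 CPM with the miR-138 mimic, 197 and 193 CPM with the miR-137 mimic, 236 and 287 CPM with pUC19 and 216 and 263 CPM in untransfected cells. There the miR-138 mimic did not pass against pUC19 (0.16 ± 0.08, adjusted p = 0.0907) but did without pUC19 replicate 2 (0.32, adjusted p = 0.00371) and when low-count genes were kept (0.17, adjusted p = 0.0138; highest 0.814), and the miR-137 mimic was lower than pUC19 (−0.42 ± 0.08, adjusted p = 0.000302). Irs2 thus had its lowest 2 libraries in serum with the miR-137 mimic and its highest 2 after 2 days with pUC19.

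Sesn3 and Insr were higher with the miR-138 mimic. Sesn3 had 69.3 and 70.9 CPM after 2 days with the miR-138 mimic, 51.8 and 45.3 CPM with the miR-137 mimic and 53.6 and 60.5 CPM with pUC19. In serum it had 45.8 and 43.7 CPM with the miR-138 mimic, 30.9 and 26.4 CPM with the miR-137 mimic and 27.4 and 27.8 CPM with pUC19, and untransfected cells had 25.1 and 25.95 CPM. The 2 libraries with the miR-138 mimic were the highest of each medium. Against pUC19 the miR-138 mimic gave 0.30 ± 0.08 after 2 days (adjusted p = 0.00296; 0.21 and 0.0621 without 2-day pUC19 replicate 1, with 0.0013 the lowest) and 0.70 ± 0.09 in serum (adjusted p = 1.02e-06). The miR-137 mimic gave −0.23 ± 0.08 after 2 days (adjusted p = 0.0282), which was lost without 2-day miR-137 replicate 2 (−0.14, adjusted p = 0.319) or 2-day pUC19 replicate 2 (−0.15, adjusted p = 0.247). DESeq2 (−0.23, adjusted p = 0.0674) and the compared libraries alone (−0.22, adjusted p = 0.0743; lowest of all 0.0111) did not call it either. In serum it gave 0.06 ± 0.09. Insr had 62.6 and 62.7 CPM in serum with the miR-138 mimic, 45.4 and 46.8 CPM with the miR-137 mimic, 46.2 and 43.4 CPM with pUC19 and 48.4 and 48.7 CPM in untransfected cells (0.48 ± 0.07 for miR-138 against pUC19, adjusted p = 8.12e-06). After 2 days Insr had 96.1 and 98.0 CPM with the miR-138 mimic, 86.4 and 95.0 CPM with the miR-137 mimic and 87.5 and 99.6 CPM with pUC19, and the groups with the miR-138 mimic and with pUC19 overlapped.

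Pik3ip1 and Foxo4 differed between the mimics after 2 days, and against pUC19 their differences were small or rested on the fit. Between the mimics Pik3ip1 was lower with miR-138 (47.3 and 61.2 CPM against 81.3 and 76.2 CPM; −0.54 ± 0.11, adjusted p = 0.000202), as was Foxo4 (29.97 and 29.5 CPM against 37.3 and 36.7 CPM; −0.32 ± 0.08, adjusted p = 0.00161). Both passed in every alternative, with 0.00788 and 0.0139 as the highest adjusted p-values. In serum Foxo4 was higher with miR-138 (0.19 ± 0.08, adjusted p = 0.0464), a call lost in 7 of its 10 alternatives (highest 0.28, lowest 0.0373). Pik3ip1 with the miR-138 mimic did not pass against pUC19 in either medium (−0.24 ± 0.11 after 2 days, adjusted p = 0.0625, and 0.19 ± 0.14 in serum, adjusted p = 0.245), although the first passed without miR-138 replicate 2 (−0.44, adjusted p = 0.00363) or pUC19 replicate 1 (−0.41, adjusted p = 0.00258), when low-count genes were kept (−0.27, adjusted p = 0.0039) and with the replicate block (−0.24, adjusted p = 0.0315; highest 0.716). With the miR-137 mimic it was higher after 2 days (0.31 ± 0.11, adjusted p = 0.0242), which was lost without miR-137 replicate 1 (0.26, adjusted p = 0.146) or pUC19 replicate 1 (0.13, adjusted p = 0.358; lowest 0.00102). In serum it did not pass (0.31, adjusted p = 0.101) except when low-count genes were kept or with the compared libraries alone (0.30 in both, adjusted p = 0.0372 and 0.0355; highest 0.304). Foxo4 had 37.3 and 36.7 CPM after 2 days with the miR-137 mimic against 32.0 and 32.2 CPM with pUC19 (0.21 ± 0.08, adjusted p = 0.0368), a call lost when any 1 of the 4 libraries was left out, when low-count genes were kept and with DESeq2 (0.19 to 0.22, adjusted p = 0.0915 to 0.141; lowest 0.0329). Foxo3 with the miR-137 mimic, which did not pass after 2 days, passed without pUC19 replicate 2 (0.23, adjusted p = 0.0286; highest 0.90). Foxo1 did not pass with either mimic against pUC19, at 0.63 and 0.46 for miR-138 and −0.19 and −0.16 for miR-137 after 2 days and in serum, though the 2-day miR-138 value passed without miR-138 replicate 1 (0.96, adjusted p = 0.0204) or pUC19 replicate 1 (1.07, adjusted p = 0.0266; highest 0.607).

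**Figure D3:**
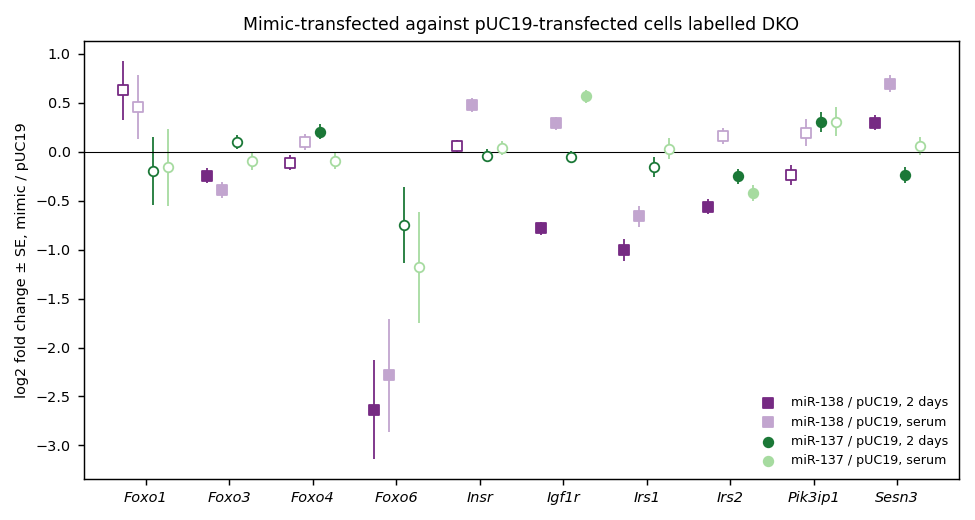
Log2 difference between mimic-transfected and pUC19-transfected cells labelled DKO (y axis, with bars of 1 SE) for the 10 members (x axis), with the miR-138 mimic as squares and the miR-137 mimic as circles, dark after 2 days without serum and light in serum; filled symbols passed the test. Igf1r lies at −0.78 without serum and at 0.29 in serum with the miR-138 mimic, and Foxo6 has the longest bars.

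Whether a mimic changed the response to withdrawal was tested as an interaction, in comparisons added after the data had been seen. With the miR-138 mimic 4 members passed, all with a smaller change on withdrawal than with pUC19, where 27.8% of all genes passed, 13.3% higher and 14.5% lower. With the miR-137 mimic 1 member passed, where 23.3% of all genes passed, 11.9% higher and 11.4% lower. Igf1r had the largest difference: its change on withdrawal was 0.04 ± 0.07 with the miR-138 mimic against 1.11 ± 0.07 with pUC19, a difference of −1.07 ± 0.09 (adjusted p = 8.73e-08), and with the miR-137 mimic 0.49 ± 0.07, a difference of −0.62 ± 0.09 (adjusted p = 7.34e-05). Irs2 changed by 0.24 ± 0.08 with the miR-138 mimic and by 0.96 ± 0.08 with pUC19 (difference −0.72 ± 0.11, adjusted p = 8.97e-05). Insr changed by 0.63 ± 0.07 and 1.06 ± 0.07 (difference −0.42 ± 0.10, adjusted p = 0.00256), and Sesn3 by 0.65 ± 0.08 and 1.05 ± 0.09 (difference −0.40 ± 0.12, adjusted p = 0.015), in the same order. For Insr and Sesn3 the level in serum was higher with the mimic, and for Irs2 the level without serum was lower. The Sesn3 call was lost without 2-day pUC19 replicate 2 (−0.32, adjusted p = 0.0657; lowest 0.00207). Irs1, which rose with pUC19 but not with the miR-138 mimic (0.24 ± 0.11, adjusted p = 0.0675, against 0.59 ± 0.10), did not pass the interaction (−0.35 ± 0.15, adjusted p = 0.101). Pik3ip1 did not pass with the miR-138 mimic (−0.43, adjusted p = 0.0739), but did under a replicate block, when low-count genes were kept, and without 2-day miR-138 replicate 2 or 2-day pUC19 replicate 1 (−0.42 to −0.64, adjusted p = 0.0055 to 0.0422; highest 0.285). With the miR-137 mimic Foxo3 passed without 2-day pUC19 replicate 2 (0.32, adjusted p = 0.0313), Irs2 without serum pUC19 replicate 1 (0.33, adjusted p = 0.0358), and Sesn3 without serum miR-137 replicate 2 or 2-day pUC19 replicate 1 (−0.40 and −0.38, adjusted p = 0.0454 and 0.0472), with 0.666, 0.856 and 0.441 as their highest. Every interaction uses the pUC19 level in serum, which for Igf1r lay below that of untransfected cells.

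**Figure D4:**
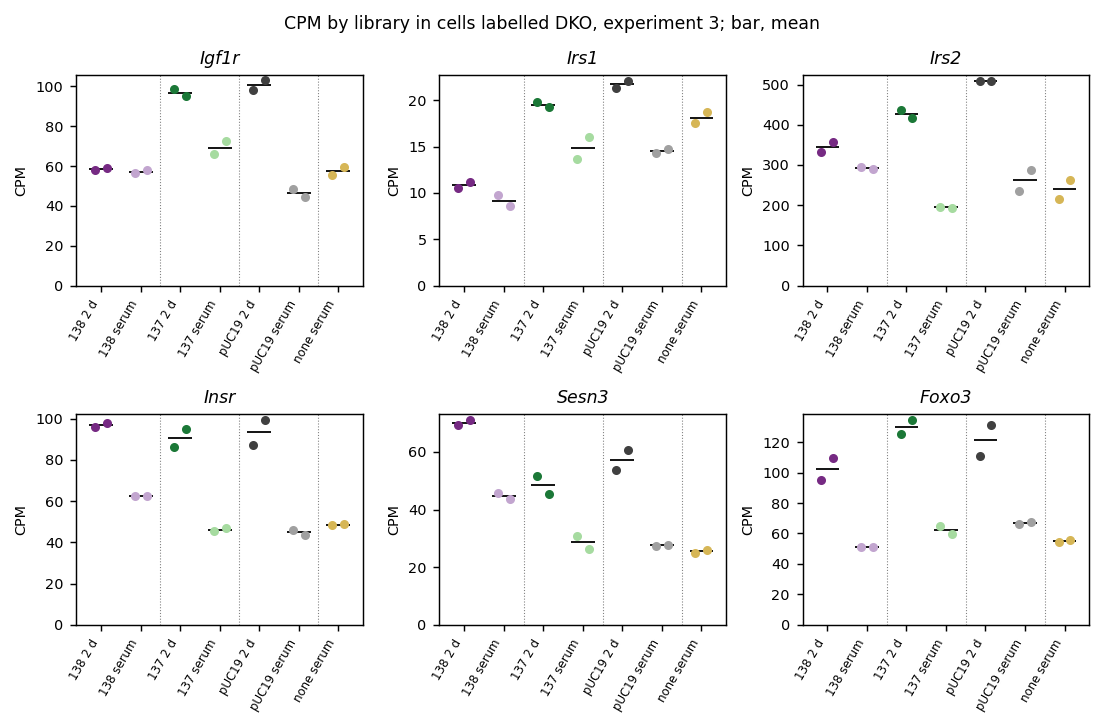
Level in CPM (y axis, from 0) of 6 members in each library of experiment 3; axis labels name the mimic by its miRNA, pUC19, or none for untransfected cells, 2 d stands for 2 days without serum, points are libraries and bars are group means. Igf1r stays at 56.3 to 59.0 CPM in all 4 libraries with the miR-138 mimic, and Irs1 is lowest in those libraries.

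The proliferation, neuronal, fibroblast and glial markers moved with these comparisons too. The summed proliferation markers were at 945 to 1124 CPM after 2 days and 1081 to 1111 CPM in serum with the miR-138 mimic, against 1463 to 1892 CPM and 2087 to 2301 CPM with pUC19. The neuronal markers were at 1340 to 1545 CPM after 2 days with the miR-138 mimic, against 1766 to 1770 CPM with pUC19. In serum they were at 1127 to 1158 CPM against 1450 to 1492 CPM. Of the 10 tested, 3 were higher and 3 lower with the mimic after 2 days, and 3 higher and 4 lower in serum. Hand2 weighed most in these sums, averaging 946 CPM after 2 days and 597 CPM in serum with the mimic. With pUC19 it averaged 1073 and 912 CPM. The fibroblast markers were at 38.8 to 39.1 CPM after 2 days with the miR-138 mimic, against 27.5 to 30.0 CPM with pUC19. In serum they were at 10.7 to 12.9 CPM against 8.17 to 8.58 CPM, so their sum was higher after withdrawal in both. Of the 6 tested, 1 was higher and 1 lower with the mimic after 2 days, and 1 higher in serum. The glial markers were at 17.2 to 18.7 CPM after 2 days with the mimic, against 9.80 to 10.8 CPM with pUC19. In serum they were at 4.33 to 5.49 CPM against 4.43 to 4.87 CPM. Of the 3 tested, 1 was higher after 2 days and 0 passed in serum. Among the glial markers Aqp4 averaged 14.6 CPM after 2 days with the miR-138 mimic, against 6.46 CPM with pUC19. With the miR-137 mimic the proliferation markers summed to 1583 to 1608 CPM after 2 days and 2600 to 2677 CPM in serum. In serum 3 of 3 were higher than with pUC19, and after 2 days 0 passed. Neuronal markers summed to 1957 to 1978 CPM and 1913 to 2028 CPM in the same order. Fibroblast markers summed to 16.6 to 17.3 CPM and 5.14 to 5.39 CPM (3 and 1 lower). Glial markers summed to 7.48 to 9.08 CPM and 1.86 to 2.57 CPM (1 lower each). The part of any of these in the members' values was not tested.

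Around the members, 74 other genes of the pathway were listed in 4 groups, chosen with earlier results of these data known. Of these genes 62 were tested in experiments 1 and 3 and 64 in experiment 2. In WT cells after 4 days without serum, 39 of the 64 rose and 13 fell, where 36.2% of all genes rose and 34.7% fell. Of the 17 reported FoxO targets tested there, 15 rose, 1 fell and 1 did not pass, with a median log2 change of 1.71 against 0.04 over all genes. The 1 that fell was Sod2, the mitochondrial superoxide dismutase (−0.99), and the 1 that did not pass was Trib1 (0.10), both named after their values were seen. Txnip, a thioredoxin-binding protein, averaged 63.7 ± 14.5 CPM after 4 days against 5.15 ± 0.31 CPM in serum (SD, n = 3 each; log2 change 3.63 ± 0.18, adjusted p = 5.76e-10). Bnip3, a mitophagy receptor, averaged 203 ± 33.3 CPM against 25.4 ± 5.59 CPM (3.00 ± 0.15, adjusted p = 9.79e-10). Of the 18 genes of the PI3K and AKT relay, 9 rose and 3 fell, with Pik3cd, a PI3-kinase catalytic subunit, at 50.3 ± 0.49 CPM against 8.23 ± 0.72 CPM (2.61 ± 0.12). Of the 15 genes of the mTOR branch tested, 6 rose and 6 fell, with a median of 0.05 near that of all genes, and of 14 ligands, binding proteins and adaptors 9 rose and 3 fell, with Igf2r, the receptor that clears insulin-like growth factor 2, at 145 ± 5.25 CPM against 31.7 ± 0.53 CPM (2.19 ± 0.08).

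After 1 day without serum 10 of the 17 reported FoxO targets rose and 1 fell in WT cells, where 20.4% of all genes rose and 20.3% fell. In cells labelled DKO 12 rose and 1 fell, where 19.9% rose and 20.4% fell. The list's medians were 0.45 in WT cells and 0.76 in cells labelled DKO. They lay above those over all genes, 0.03 and 0.01. In serum cells labelled DKO, 8 of the 17 were lower than in WT cells and 1 was higher (median −0.29; 21.5% of all genes lower and 19.2% higher), and after 1 day 3 were lower and 6 higher (median 0.13; 23.0% lower and 21.9% higher). Trib3, a pseudokinase that binds AKT, averaged 81.5 ± 7.31 CPM after 1 day against 11.4 ± 0.67 CPM in serum in cells labelled DKO (2.83 ± 0.11, adjusted p = 3.13e-10), and its change on withdrawal was 2.38 ± 0.14 log2 units greater there than in WT cells (adjusted p = 3.75e-07). In pUC19-transfected cells labelled DKO, Trib3 went the other way. It averaged 14.2 ± 1.42 CPM after 2 days against 64.4 ± 1.32 CPM in serum (−2.19 ± 0.09, adjusted p = 1.05e-13). The serum level was above the 11.5 ± 0.81 CPM of untransfected cells (2.48 ± 0.09, adjusted p = 1.86e-13). Its change on withdrawal was −0.51 ± 0.09 with the miR-138 mimic and 0.24 ± 0.09 with the miR-137 mimic. Bnip3 averaged 186 ± 2.63 CPM against 26.6 ± 1.41 CPM in cells labelled DKO (2.80 ± 0.09, adjusted p = 1.33e-10), and its change was 2.07 ± 0.13 greater there than in WT cells (adjusted p = 3.75e-07). It rose in pUC19 cells too (2.36 ± 0.08). The signs of the Trib3 and Bnip3 interactions were opposite to that of Pik3ip1. Among the binding proteins, Igfbp5 averaged 512 ± 8.13 CPM in serum cells labelled DKO against 131 ± 3.15 CPM in WT cells (1.97 ± 0.06, adjusted p = 4.62e-12). Grb14, an adaptor that inhibits the insulin receptor, averaged 12.5 ± 1.16 CPM against 41.1 ± 3.57 CPM (−1.72 ± 0.12, adjusted p = 3.01e-08).

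With the miR-138 mimic after 2 days, 22 of the 62 tested pathway genes were higher and 21 lower than with pUC19, where 30.9% of all genes were higher and 31.1% lower. In serum 18 were higher and 19 lower, where 28.7% were higher and 27.3% lower. These counts lay near the shares of all genes. Eif4ebp1, the translation repressor that mTORC1 inactivates, was lower in both media, at 24.5 ± 1.71 CPM against 59.98 ± 0.36 CPM with pUC19 after 2 days (−1.30 ± 0.07, adjusted p = 1.03e-11) and at 39.8 ± 0.18 CPM against 119 ± 1.97 CPM in serum (−1.59 ± 0.06, adjusted p = 2.12e-13). Sgk1, a kinase close to AKT that also phosphorylates FoxO factors, averaged 474 ± 37.7 CPM against 195 ± 24.8 CPM after 2 days (1.28 ± 0.07, adjusted p = 1.29e-11). Grb14 averaged 66.8 ± 1.21 CPM against 22.3 ± 1.69 CPM (1.59 ± 0.08, adjusted p = 2.98e-12). Of the 17 reported FoxO targets tested, 7 were higher and 5 lower after 2 days (median 0.12, against 0.002 over all genes). In serum 5 were higher and 7 lower. With pUC19 in serum, 8 were higher and 1 lower than in untransfected cells, where 10.7% and 15.5% of all genes were. On withdrawal 9 rose and 3 fell with pUC19, where 28.4% of all genes rose and 31.3% fell. With the miR-138 mimic 10 rose and 4 fell (31.1% and 32.2% of all genes). With the miR-137 mimic 14 rose and 2 fell (33.2% and 32.6%). All means here are ± SD with n = 2.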

How the data were processed

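PolyA RNA-seq of CAD cells was read from the deposited tables of raw counts per gene, which the authors made with STAR on mm9, per the submitters' processing notes, with versions and annotation not given in the sources used here. Libraries were strand-specific, with paired reads of 75 bp in experiments 1 and 2 and single reads of 50 bp in experiment 3, per the labels' protocols. The count of the reverse strand (the fourth column) was used, since the third held 3.18 to 3.81% of the reads of both. Rows that name no gene (unmapped, multimapped, ambiguous and no-feature reads), 23.33 to 34.16% of the reads in a file, were left out. Of 37310 identifiers 32620 (87.4%) matched a symbol. Reads that map to several places were not counted.

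Each experiment was fitted apart with edgeR 4.0.16 and limma 3.58.1 in R 4.3.3, with the data.table package (version 1.17.8): filterByExpr (minimum count 10, total 15), TMM scaling, and the quasi-likelihood test, two-sided, with p-values adjusted by Benjamini and Hochberg's method across every gene tested (FDR 0.05). CPM values are TMM-scaled, and levels were not compared between genes, since no transcript lengths were at hand. Values are means ± SD or log2 fold changes ± SE. The SE was derived from the test, as the size of the log2 fold change over the square root of the F statistic. The scripts were tested on simulated data. Replicates of every group differed by more than sampling noise (chi-square per gene at least 2.17), so none was merged.

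The members, the 4 pathway lists and the marker lists were chosen with earlier results of these data known, and the 2 interactions of mimic and withdrawal were added after seeing the data. The text names all 10 members and, of the lists, up to 4 genes per comparison with the lowest adjusted p and at least 5 CPM; for Foxo1, Pik3ip1, Irs2 and Sesn3 it names the 3 genes with the most similar pattern. Alternatives were RLE scaling, no low-count filter, the replicate number as a block, unstranded counts, DESeq2 1.42.0, the compared libraries alone, and each library left out in turn; where that left 1 library in a group, it was assumed to vary like the others. The 6 small RNA libraries were not used here. Promoters and miRNAs came from RefSeq tables. Figures were drawn with matplotlib 3.10.9 and pandas 2.3.3 in Python 3.11.15.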

Additional observations from a re-analysis of the deposited data

Results flagged for a closer look

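Among the 10 members, 6 changes on serum withdrawal differed between lines or transfections by a test of the difference itself. All are log2 differences of the change on withdrawal, from edgeR's quasi-likelihood test, with p-values adjusted by Benjamini and Hochberg's method across every gene. Pik3ip1 changed less in cells labelled DKO than in WT cells (−0.899, adjusted p = 0.00465), with 40.2 and 42.4 CPM after 1 day against 19.7 and 16.5 CPM in serum in cells labelled DKO, and 37.8 and 38.5 CPM against 9.57 and 8.43 CPM in WT cells. With the miR-138 mimic against pUC19, Igf1r differed by −1.074 (adjusted p = 8.73e-08), Irs2 by −0.724 (adjusted p = 8.97e-05), Insr by −0.424 (adjusted p = 0.00256) and Sesn3 by −0.4 (adjusted p = 0.015). With the miR-137 mimic against the same pUC19 libraries, Igf1r differed by −0.622 (adjusted p = 7.34e-05). Of all genes tested, 9.72% passed for the lines, 27.8% for the miR-138 mimic and 23.3% for the miR-137 mimic.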

How the results depend on the processing

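Over the 18 comparisons the members gave 99 calls, of which 87 were kept in every alternative other than leaving out a library and 71 in every alternative run; no call changed its direction. Counts of members called moved by more than 1.5 times in these cases. For the interaction of label and withdrawal, 2 members passed with no low-count filter, against 1. For pUC19 against untransfected cells, 2 passed with no low-count filter, with DESeq2 and with the compared libraries alone, against 4. For the miR-137 mimic against pUC19 after 2 days, 2 passed with DESeq2, against 4. Leaving out 1 library gave 2 to 4 members for cells labelled DKO against WT after 1 day (5 with all), 1 to 2 for the interaction of label and withdrawal (1 with all), 1 to 4 for pUC19 against untransfected cells (4 with all), 1 to 3 for the miR-137 mimic against pUC19 after 2 days (4 with all) and 1 to 2 for the miR-137 interaction (1 with all). Same-numbered replicates did not deviate together (correlations of −0.026, 0.023 and 0.025 over the 3 pairs of experiment 2, and of −0.187 to 0.096 elsewhere). No pairing by number was thus seen. With 2 libraries per group each pair of groups gives 1 value, so this cannot exclude pairing. With the replicate number as a block the counts of members were 8 against 7 for WT after 1 day and after 4 days. They were 6 against 5 for cells labelled DKO against WT after 1 day. For the miR-138 mimic against pUC19 after 2 days they were 7 against 6, and for the miR-138 interaction 5 against 4. No other count changed. Few reads lie behind Foxo1, at 1.04 to 3.46 CPM in experiment 3 and 0.07 to 1.65 CPM elsewhere, and behind Foxo6 in experiment 3, at 0.06 to 2.01 CPM. With 2 libraries in most groups, leaving 1 out leaves a group with 1 library, and a call lost that way need not mean a smaller change.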

Other observations

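The genes whose pattern over the 13 RNA-seq groups was most like that of 4 members were listed as a description, by Pearson's r of group mean log2 CPM centred within each experiment, over 11882 genes kept in all 3 experiments. The groups of an experiment share libraries' scaling and media, so these values carry no test. Closest to Pik3ip1 were Mau2 (r = 0.986), a cohesin loader subunit, Mxra8 (0.984) and Ppp4r1l-ps (0.982). Closest to Irs2 were Khdc4 (0.96) and the fatty acid desaturases Fads2 (0.951) and Fads1 (0.95). Closest to Sesn3 were Eme2 (0.96), Ropn1l (0.948) and Btbd2 (0.947), and closest to the sparsely read Foxo1 were Zfp810 (0.959), Tmem135 (0.954) and Gm12762 (0.944). Among the members themselves, over the same 13 groups, Foxo3 and Pik3ip1 were most alike (r = 0.963), followed by Insr and Pik3ip1 (0.951) and Foxo3 and Insr (0.95), while Foxo6 was most like Irs1 (0.881) and Irs2 most like Sesn3 (0.8).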
